A study of Mus musculus with 9 samples.

Results

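The cytosolic ribosomal protein genes were examined in mouse brain. Members were all protein-coding genes of the count table whose symbol begins with Rpl or Rps and a number, together with the stalk genes Rplp0, Rplp1 and Rplp2, leaving out the Rps6 kinases, whose symbols share the prefix. The rule found 92 genes among 56748 gene models, and 83 of them were among the 17575 genes that passed the count filter and were tested. By name, 76 of the 92 encode core ribosomal proteins, of which 75 were tested, and the others are paralogs, related genes or retrocopies.

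RNA came from the brains, without the cerebellum, of mice aged 7 months, with 3 mice and 1 library each per genotype. Wild-type mice carried neither transgene. 5xFAD mice express mutant human amyloid precursor protein and presenilin 1 transgenes under the neuronal Thy1 promoter and develop amyloid plaques. 5xFAD/Cd5l tg/wt mice carry the 5xFAD transgenes and in addition a mouse Cd5l transgene, driven by the human PDGF-B promoter; Cd5l encodes a secreted protein normally made by macrophages, so the transgene is a forced expression that does not follow the native cell type. A group with the Cd5l transgene but without those of 5xFAD was not analysed here. Where mice carried the transgene, Cd5l held 2553, 2822 and 3551 counts per library, 187 ± 15.5 counts per 1000000 (CPM; SD, n = 3). It held 1 count in wild-type replicate 2 and 0 in the other wild-type and the 5xFAD libraries.

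The cytosolic ribosome is built from a small subunit, which reads the messenger RNA, and a large subunit, which joins amino acids and carries the flexible P stalk where elongation factors dock. Its proteins are needed in near-equal amounts, and their genes are among the most highly expressed in any cell. Most of their messenger RNAs start with a pyrimidine-rich stretch, the 5' terminal oligopyrimidine or TOP motif, through which mTORC1 signalling controls their translation. In the brain these transcripts are found in cell bodies and also in axons, dendrites and glial processes. Ribosomal protein genes have also left many processed copies across the mouse genome, which bears on how reads can be assigned to them.

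The first sequences show pyrimidine-rich starts, a feature known of these genes that the rule did not use; most members did not hold the motif searched. RefSeq promoters on GRCm38.p6 were matched by symbol for 66 of the 92 genes. The motif CTTT, read on the gene's strand, lay within 10 bases before to 10 bases after the annotated start in 18 of those 66 genes (27.3%), against 9.12% of 27025 genes with a promoter. Its reverse complement AAAG lay in the same window in 4 of the 66 (6.06%), against 8.63% of all. Examples follow from 15 bases before to 15 after the start, with the first CTTT of the searched window in capitals. In Rps27 that CTTT lies before the annotated start, and another, left in lower case, lies after it.

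Rps6 (chr4:86857353-86857382, minus strand): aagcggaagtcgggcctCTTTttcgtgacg
Rpl18 (chr7:45718056-45718085, plus strand): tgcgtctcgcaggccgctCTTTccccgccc
Rpl28 (chr7:4792950-4792979, plus strand): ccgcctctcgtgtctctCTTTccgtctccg
Rplp2 (chr7:141447636-141447665, plus strand): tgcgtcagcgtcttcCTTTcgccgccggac
Rpl38 (chr11:114668565-114668594, plus strand): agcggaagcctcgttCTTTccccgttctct
Rps27 (chr3:90213634-90213663, minus strand): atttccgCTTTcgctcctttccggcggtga
Rps27rt (chr9:114982725-114982754, minus strand): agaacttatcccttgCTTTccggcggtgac

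Rps6 encodes the small-subunit protein phosphorylated by the S6 kinases, Rplp2 a stalk protein, Rpl18, Rpl28 and Rpl38 large-subunit proteins, and Rps27 a zinc-binding small-subunit protein. Rps27rt is a copy of Rps27 at another site in the genome, and its start window also held CTTT.

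The second set shows how close a copy can be to its parent, because several results below rest on such pairs. Coding sequences were taken from the GENCODE M21 models on GRCm38. Rpl9, which encodes a large-subunit protein (chromosome 5, 65545707 to 65548787, minus strand, GRCm39), and Rpl9-ps6 (chromosome 19, 32443265 to 32443978, minus strand, GRCm39), which the table lists as protein-coding, differed at 1 of 579 coding bases, G266A, counted from the A of the start codon with the base of Rpl9 first. Bases 12 to 266 are given, with the differing base in capitals.

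Rpl9: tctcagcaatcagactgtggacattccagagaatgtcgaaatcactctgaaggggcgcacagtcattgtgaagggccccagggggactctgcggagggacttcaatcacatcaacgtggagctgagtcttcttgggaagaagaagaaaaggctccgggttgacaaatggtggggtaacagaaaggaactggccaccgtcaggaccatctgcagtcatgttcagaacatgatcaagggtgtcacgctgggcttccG
Rpl9-ps6: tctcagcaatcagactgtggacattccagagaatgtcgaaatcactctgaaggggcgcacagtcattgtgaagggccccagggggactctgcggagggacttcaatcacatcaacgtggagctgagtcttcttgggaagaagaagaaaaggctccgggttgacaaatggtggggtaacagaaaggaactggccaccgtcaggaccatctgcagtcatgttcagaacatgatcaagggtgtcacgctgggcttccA

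Rps27 (chromosome 3, 90119829 to 90120958, minus strand, GRCm39) and Rps27rt (chromosome 9, 114811434 to 114811807, minus strand, GRCm39) had identical coding sequences of 255 bases.

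Rps27 and Rps27rt: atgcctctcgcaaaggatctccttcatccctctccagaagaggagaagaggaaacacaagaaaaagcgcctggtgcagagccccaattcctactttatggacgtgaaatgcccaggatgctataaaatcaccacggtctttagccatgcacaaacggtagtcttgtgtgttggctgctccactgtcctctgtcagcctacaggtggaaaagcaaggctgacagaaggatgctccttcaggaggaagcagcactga

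Such sharing was the rule among the members. Of 91 members with a coding sequence, 75 shared over 50% of their 50-base words with the transcript of another gene, 47 shared over 90% and 30 shared all of them, with a median of 90.3%. Among the few that shared none were Rps19bp1, Rpl3l and Rpl39l. How the authors' counting assigned reads that match several genes is not given in the sources used here, so the level of a single member with a close copy is uncertain. A further 314 gene models are named as ribosomal protein pseudogenes, and 165 of these held counts, in all 7514 to 11118 per library.

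The libraries held 14575416 to 17865150 counts. Wild-type replicate 3 stood apart in cerebellar markers, whose summed level was 1092 CPM there against 188 to 257 CPM in the other libraries, although the tissue is labelled as free of cerebellum; 5xFAD/Cd5l tg/wt replicate 2 had the lowest oligodendrocyte marker sum, 4609 CPM against 6298 to 8138 CPM elsewhere. Those same 2 libraries were the lowest in ribosomal protein counts, and the mean shares, medians and counts of groups without overlap are also given below without them. In whole tissue, fewer cells of a type and less RNA per cell cannot be told apart.

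Ribosomal protein genes took 1.14%, 1.17% and 1.04% of all counts in wild-type replicates 1, 2 and 3, 1.22%, 1.23% and 1.24% in 5xFAD, and 1.21%, 1.05% and 1.20% in 5xFAD/Cd5l tg/wt. The means were 1.12% ± 0.0662 (SD, n = 3), 1.23% ± 0.0102 and 1.15% ± 0.0941. Without wild-type replicate 3 the wild-type mean was 1.16%, and without 5xFAD/Cd5l tg/wt replicate 2 that genotype's mean was 1.21%, both still below 5xFAD. The 5xFAD libraries lay close together and above all others, while each of the other genotypes had 1 library well below its other members. Large-subunit genes, small-subunit genes and the stalk moved together: counts at large-subunit genes were 1.38 to 1.44 times those at small-subunit genes in every library.

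**Figure D1:**
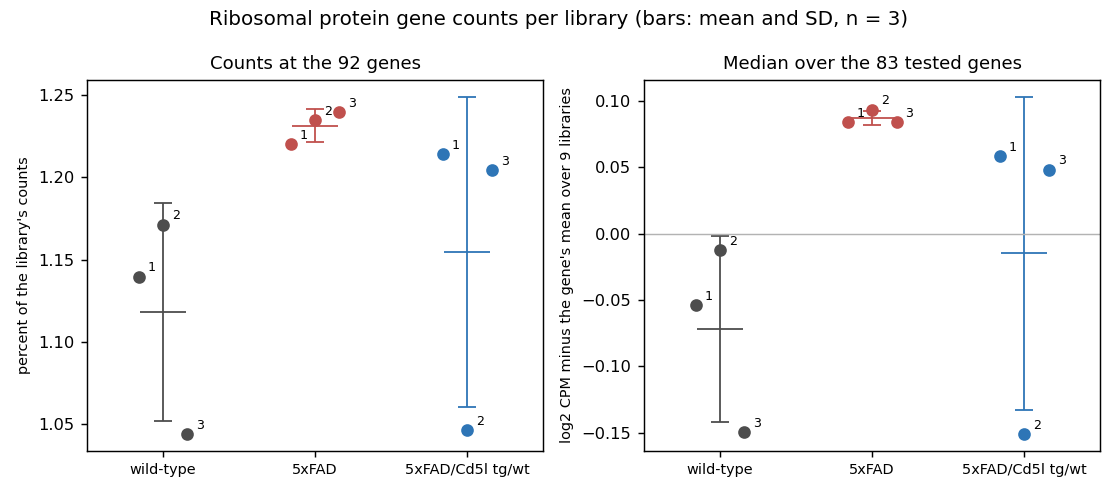
Left, percent of each library's counts at the 92 ribosomal protein genes; right, the median over the 83 tested genes of log2 CPM minus the gene's own mean over the 9 libraries. Points are libraries numbered by replicate, and bars give the mean and SD per genotype (n = 3). The 5xFAD libraries lie together at 1.22% to 1.24%, and wild-type replicate 3 and 5xFAD/Cd5l tg/wt replicate 2 lie lowest.

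Among the 75 core genes tested, 30 had their lowest CPM in wild-type replicate 3, 33 in 5xFAD/Cd5l tg/wt replicate 2 and 9 in wild-type replicate 1. The highest CPM fell in 5xFAD replicate 1 for 9 of the core genes, in replicate 2 for 22 and in replicate 3 for 14. It fell in 5xFAD/Cd5l tg/wt replicate 1 for 15 and in replicate 3 for 8. Of the 83 tested genes, 76, 66 and 74 were above their own mean in the 5xFAD libraries, 21, 36 and 10 in the wild-type libraries, and 57, 7 and 57 in the 5xFAD/Cd5l tg/wt libraries.

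**Figure D2:**
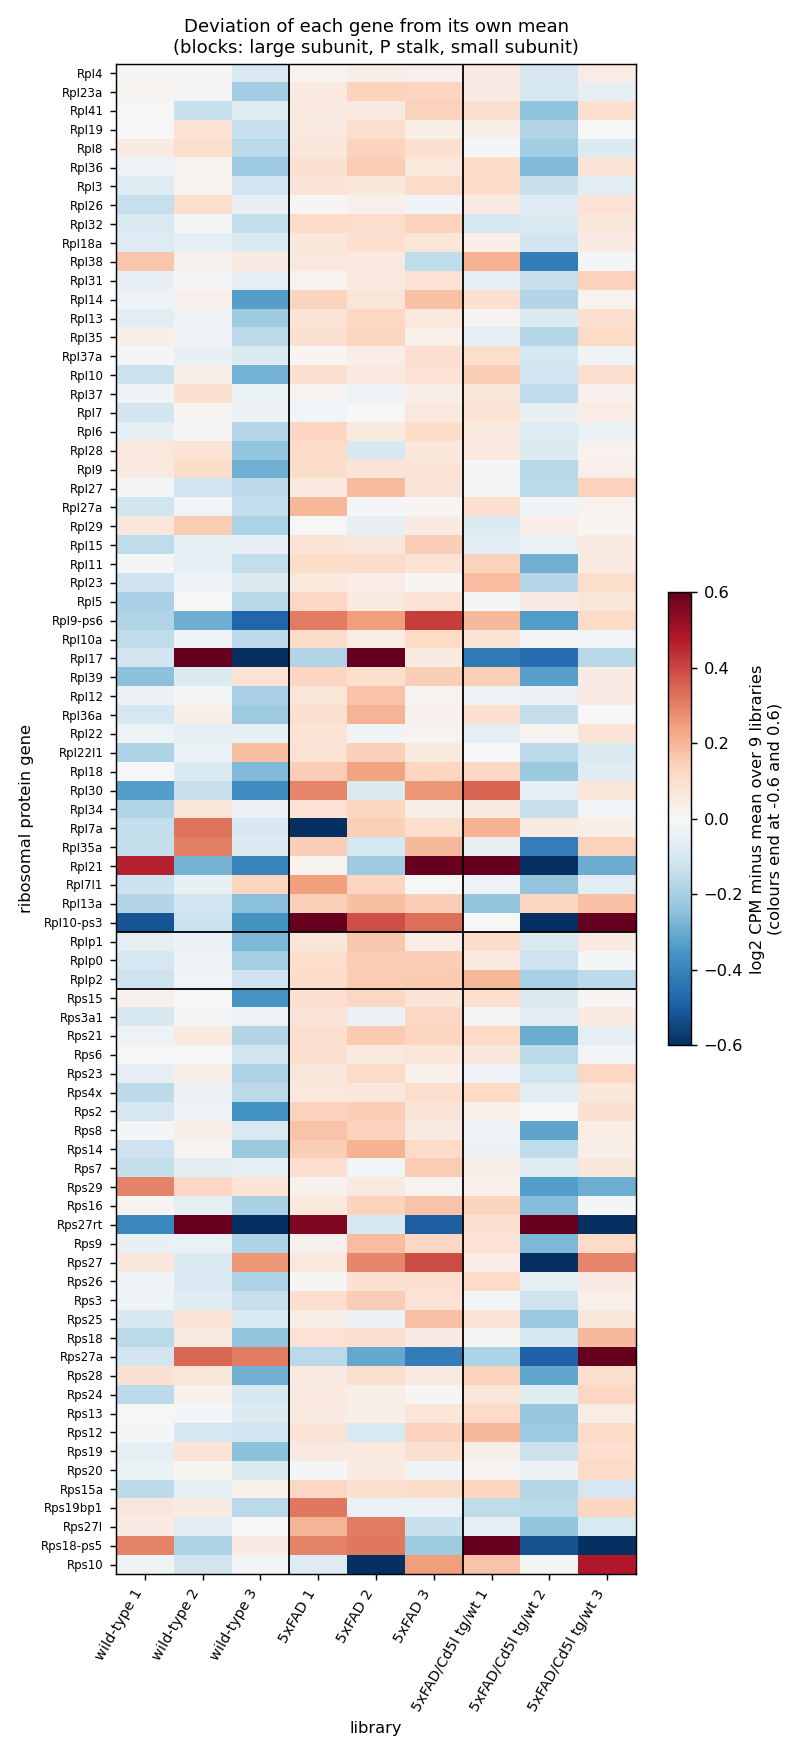
Log2 CPM of 80 of the 83 tested genes, each minus its own mean over the 9 libraries, with genes in rows by subunit and libraries in columns by genotype. Most rows are above their mean in the 3 5xFAD columns and below it in wild-type replicate 3 and 5xFAD/Cd5l tg/wt replicate 2, and the strongly coloured rows Rpl17, Rpl21, Rps27, Rps27rt and Rps27a vary between replicates of a genotype.

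Levels per kilobase of gene length spanned a wide range among genes whose proteins are needed in near-equal amounts. Rplp1, a stalk protein, was highest at 648 ± 56.0 CPM per kb (mean and SD over 9 libraries). Rps15, a small-subunit protein, followed at 405 ± 38.3 CPM per kb, and Rps3a1 stood at 317 ± 15.7. Rpl4 (220 ± 8.57) and Rpl23a (213 ± 16.1), both large-subunit genes, were next and overlapped within their SD. The gene lengths used are those of the table, which cover all annotated exons and so lower the value of genes with long, rarely used exons. Rplp0, the stalk's anchor, stood at 117 ± 10.1 CPM per kb and Rplp2 at 33.6 ± 3.603, below its partner Rplp1.

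At the low end were Rps10 at 1.02 ± 0.208 CPM per kb, the retrocopies Rpl10-ps3 (1.90 ± 0.817) and Rps18-ps5 (3.31 ± 0.925), the large-subunit gene Rpl13a at 7.53 ± 0.959, and the paralog Rpl7l1 at 11.6 ± 1.20. Rps10 and Rpl13a encode core proteins, yet Rps10 had 337 counts and Rpl13a 2292 in all 9 libraries together. Core gene Rpl24 had 45 counts and did not pass the filter. The processed copies of 2 of them held more: Rps10-ps2 had 4135 counts and Gm9385, a copy of Rpl24, 399. Summed as families, the Rps10 genes had means of 28.9 CPM in wild-type, 33.0 in 5xFAD and 31.5 with the Cd5l transgene, and the Rpl24 genes 2.75, 3.93 and 3.61 CPM in that order. In the deposited annotation (GRCm39), a gene model other than a small RNA overlapped 5 members on the same strand: Rps10, Rpl13a, Rpl24, Rpl36al and Rpl19. In no case did it span the whole member. Rpl19 held 27646 counts nonetheless, and the part of those models in the low counts of the others was not tested. The other members that did not pass were Rpl3l, Rpl36al, Rpl36a-ps1, Rps23rg1, Rps18-ps6 and Rpl39l, with 45, 44, 43, 34, 19 and 7 counts, and Rpl10l and Rpl36-ps4, with 0.

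Paralogs were mostly far below their core partners. Rpl3l, a striated-muscle form of Rpl3, reached 0.191 ± 0.123 CPM per kb against 147 ± 10.03 for Rpl3, and Rpl39l, a form known from the male germline, 0.0588 ± 0.110 against 47.4 ± 5.51 for Rpl39. Rpl22l1 was an exception at 30.4 ± 2.70 CPM per kb, within the SD of Rpl22 at 30.8 ± 1.17. Rps27l, a relative of Rps27 known as a p53 target, stood at 12.4 ± 1.496 CPM per kb and Rps27 itself at 71.8 ± 18.6. Over all libraries together Rps27rt held 4573 counts over 374 bases, and Rps27 held 10805 over 1043 bases. The split differed between libraries. Rps27rt held 196 counts and Rps27 1240 in wild-type replicate 3, against 988 and 423 in 5xFAD/Cd5l tg/wt replicate 2. Their coding sequences are identical, so the level of either alone is uncertain. Rps19bp1, whose product binds Rps19, stood at 14.5 ± 1.67.

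How these genes differed with the amyloid transgenes alone was asked by setting 5xFAD libraries against wild-type. Most members were slightly higher in 5xFAD, but 1 passed the test. Rpl9-ps6 rose, by a log2 fold change of 0.64 ± 0.13 (SE; edgeR's quasi-likelihood test, Benjamini-Hochberg adjusted p = 0.0171), and 0 members fell. Among all tested genes 3.5% passed, 1.06% as higher and 2.44% as lower, so 1 of 83 members is near the background. At an unadjusted p under 0.05, 28 members were higher and 0 lower, where 5.56% of all tested genes were higher and 10.7% lower.

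Rpl9-ps6 stood at 30.3, 28.1 and 24.7 CPM in the wild-type libraries, at 42.6, 40.9 and 45.8 in 5xFAD and at 39.3, 27.2 and 37.2 in 5xFAD/Cd5l tg/wt. Every 5xFAD library was above every wild-type library. Its parent Rpl9 stood at 228, 237 and 179 CPM in wild-type and 236, 231 and 232 in 5xFAD, with overlapping groups and a log2 difference of 0.12 ± 0.10 (adjusted p = 0.606). When the counts of Rpl9, Rpl9-ps6 and their other copies were summed before the fit, the difference was 0.19 ± 0.10 (adjusted p = 0.343), and the family did not pass. The call on Rpl9-ps6 also ended without any 1 of the 5xFAD libraries and without wild-type replicate 2, although over 22 alternatives in which it was tested on its own the log2 fold change stayed between 0.56 and 0.71, with adjusted p-values up to 0.0751.

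Although single genes missed the threshold, the members lay on one side. The log2 fold change was above 0 in 76 of 83 members, against 47.8% of all tested genes, with a median of 0.15 (11.2% higher) beside -0.011 over all tested genes. In 47 of the 83 every 5xFAD library was above every wild-type library, and in 2 every one was below; among all tested genes these shares were 10.4% and 13.9%. With wild-type replicate 3 left out the counts were 49 and 3, against 18.3% and 20.7% of all tested genes. The middle 50% of members lay between 0.10 and 0.20 on the log2 scale. The median SE of a member was 0.087. By subunit, 42 of 46 large-subunit genes (median 0.16), 31 of 34 small-subunit genes (median 0.14) and 3 of 3 stalk genes (median 0.23) were above 0.

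**Figure D3:**
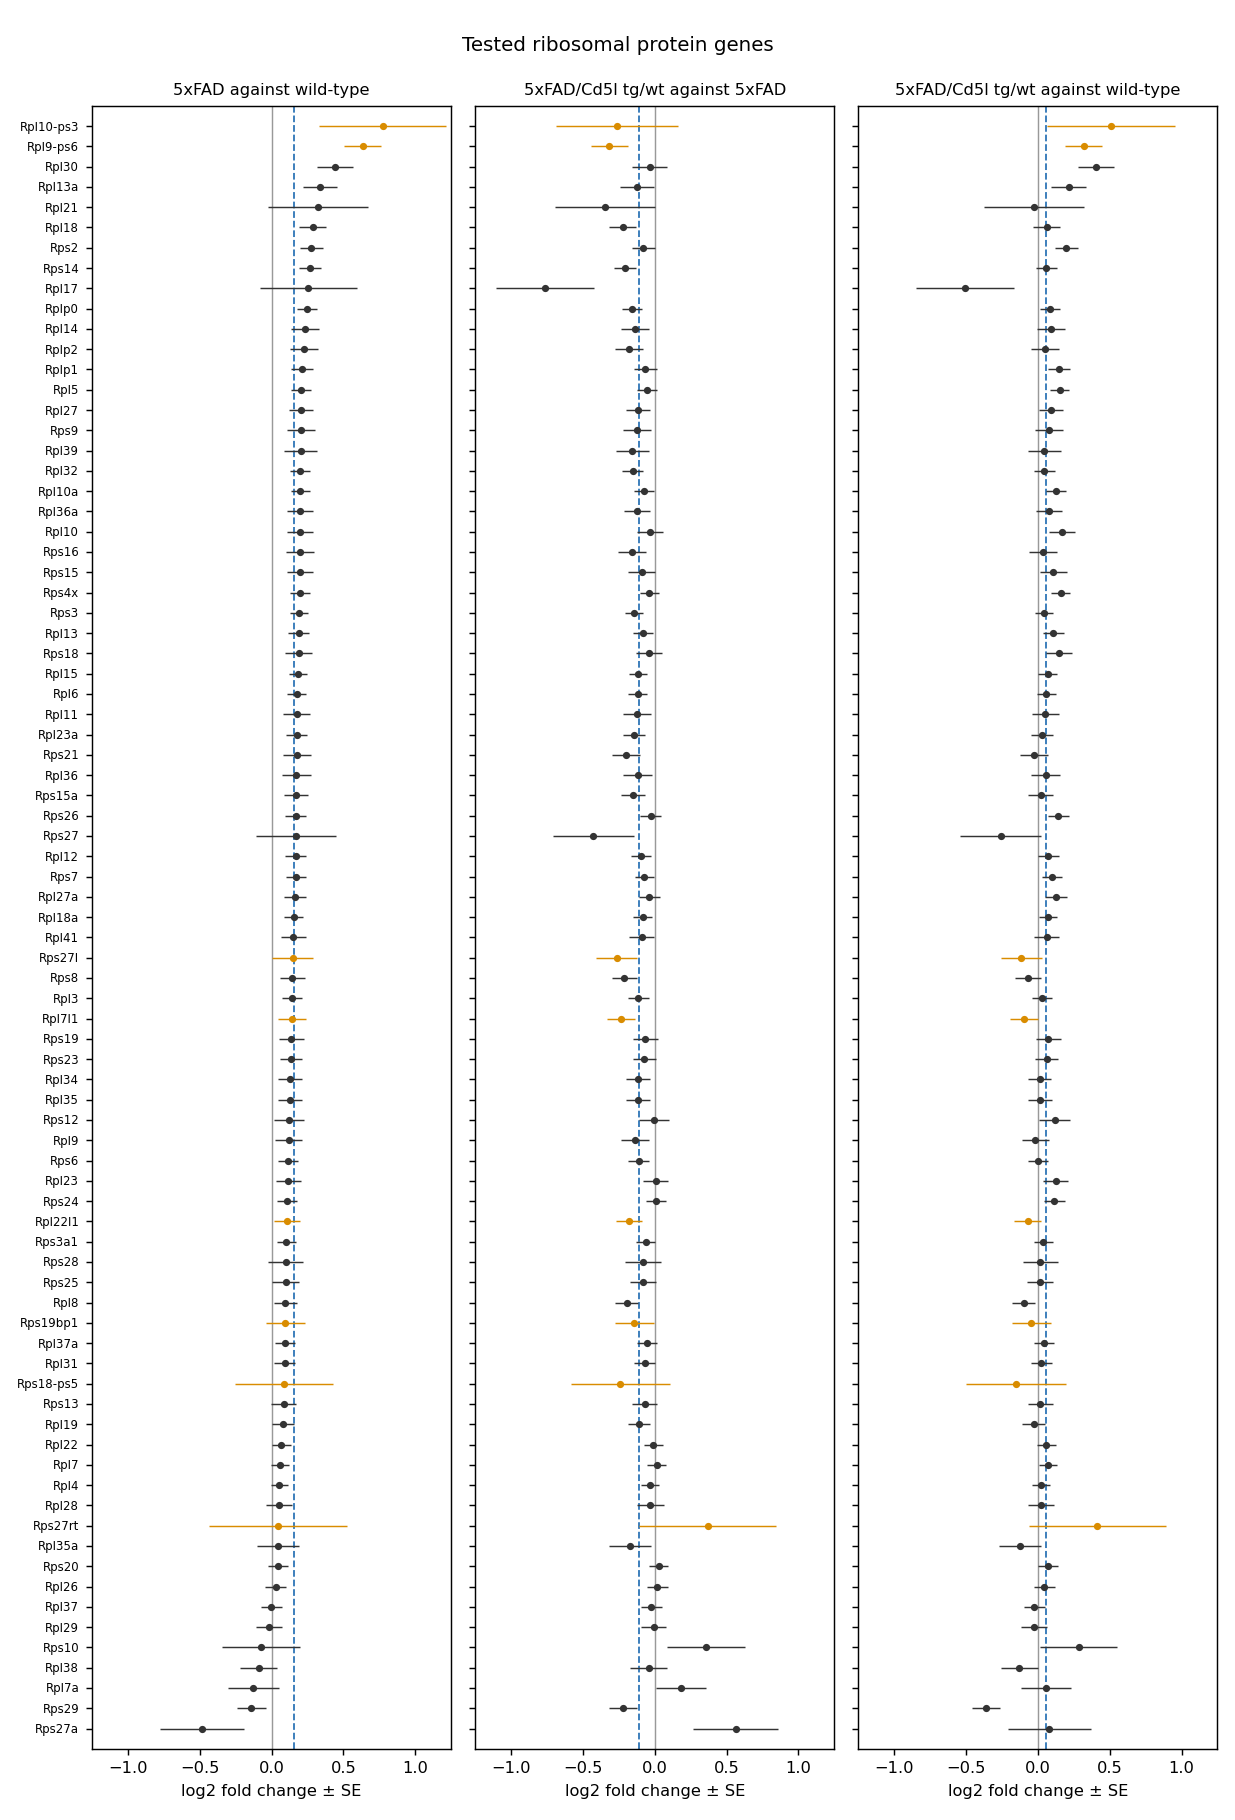
Log2 fold change and SE of 80 of the 83 tested genes in the 3 comparisons, ordered by 5xFAD against wild-type; black points are core genes, orange points paralogs, relatives and retrocopies, and the dashed line is the members' median. The points of the left panel gather around 0.15, those of the middle panel around -0.11, and those of the right panel around 0.06, with wide errors for Rpl17, Rpl21, Rps27, Rps27rt and Rps27a.

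The members with the next smallest p-values after Rpl9-ps6 were core genes. Rpl30, a large-subunit protein, stood at 61.2, 69.9 and 59.5 CPM in wild-type and 94.3, 72.4 and 92.3 in 5xFAD, without overlap (log2 0.44 ± 0.12, adjusted p = 0.0764 in edgeR). Rps14, a small-subunit protein of the platform (chromosome 18, 60880170 to 60911618, GRCm39), stood at 230, 253 and 215 CPM in wild-type and 277, 290 and 273 in 5xFAD (0.27 ± 0.08, adjusted p = 0.0832). Its 5xFAD libraries were all above its wild-type libraries.

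Rplp0, the P stalk anchor and a common reference gene in quantitative PCR, stood at 180, 190 and 168 CPM in wild-type and 208, 215 and 214 in 5xFAD (0.24 ± 0.07, adjusted p = 0.0854 in edgeR). The groups did not overlap. Rplp0 shares 60.4% of its 50-base words with other genes, fewer than the median member. Rplp1 (0.21 ± 0.08, adjusted p = 0.192) and Rplp2 (0.23 ± 0.10, adjusted p = 0.271), the other stalk genes, also had 5xFAD libraries above all wild-type libraries without passing the test.

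The direction was alike in members with few and with many shared words. The median was 0.15 over the 13 tested members with at most 50% of their 50-base words shared, 13 of them above 0, and 0.15 over the 70 with more. After the copies of each member were summed into 82 tested families, 79 families were above 0 with a median of 0.17, and 0 passed the test (smallest adjusted p = 0.0871 in edgeR, for the Rps2 family). For Rpl30, summing brought the log2 difference from 0.44 to 0.16 ± 0.10 (adjusted p = 0.472): its processed copy Gm12191 held 244, 298 and 327 counts in wild-type and 136, 229 and 132 in 5xFAD libraries, opposite in direction to Rpl30.

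A few members went against the rest. Rps29, a small-subunit zinc-binding protein, stood at 79.8, 70.7 and 68.6 CPM in wild-type and 66.0, 67.3 and 65.5 in 5xFAD (-0.14 ± 0.10, adjusted p = 0.543). Every 5xFAD library was below every wild-type library. Its coding sequence is wholly shared with the copy Gm14303, which held 190, 143 and 125 counts in wild-type and 304, 363 and 314 in 5xFAD and rose (log2 1.11, adjusted p = 0.0119 in edgeR), and the sum of their family differed by 0.07 ± 0.11 (adjusted p = 0.813).

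Rps27a, which encodes ubiquitin fused to a small-subunit protein, was also below wild-type in every 5xFAD library (-0.48 ± 0.29, adjusted p = 0.463). It stood at 57.4, 78.8 and 77.0 CPM in wild-type, at 55.6, 50.2 and 46.6 in 5xFAD and at 54.5, 44.3 and 125.7 in 5xFAD/Cd5l tg/wt, where replicate 3 was far above every other library.

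Leaving out wild-type replicate 3 moved the members' median from 0.15 to 0.11, with 71 of 83 above 0. Without wild-type replicate 3 and 5xFAD/Cd5l tg/wt replicates 2 and 3, 6 of 84 tested members passed the test, among them Rps14, Rplp0, Rpl30, Rpl39 and Rpl9-ps6, all 6 higher in 5xFAD and with log2 fold changes from 0.21 to 0.57, where 2.32% of all genes tested in that fit passed as higher. That fit left out the 3 libraries held to be apart in regional markers, with replicate 1 as the only 5xFAD/Cd5l tg/wt library. Of the 3, 5xFAD/Cd5l tg/wt replicate 3 was not clearly apart. Its choroid plexus marker sum was the highest at 812 CPM, but wild-type replicate 1 stood at 766 CPM. The members' median in that fit was 0.12. DESeq2 also called 6 of 83, all higher, where it called 1.53% of all genes higher, among them Rps14, Rps2, Rplp0, Rpl30 and Rpl9-ps6.

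Some other measures moved with this difference. Of 6 astrocyte markers all were above 0 and Gfap rose, with sums of 3295 to 3655 CPM in wild-type, 4265 to 4416 CPM in 5xFAD and 4531 to 4694 CPM in 5xFAD/Cd5l tg/wt. Of 6 oligodendrocyte markers all were below 0 and 0 passed (0 also by DESeq2 and at an unadjusted p under 0.05), with a median of -0.12 and sums of 7229 to 8138 CPM, 6517 to 7361 CPM and 4609 to 6898 CPM in the 3 genotypes in that order. Microglial markers rose in 8 of 8 genes, with sums of 298 to 333 CPM in wild-type, 546 to 713 CPM in 5xFAD and 667 to 756 CPM in 5xFAD/Cd5l tg/wt. Of the endothelial markers 3 of 6 fell in 5xFAD, with sums of 189 to 210 CPM, 114 to 145 CPM and 204 to 241 CPM in the 3 genotypes in that order. Nuclear-retained RNAs such as Malat1, Meg3 and Xist fell in 6 of 6 genes, with sums of 3578 to 4684 CPM in wild-type, 1486 to 1850 CPM in 5xFAD and 3940 to 5756 CPM in 5xFAD/Cd5l tg/wt. Counts at nuclear ribosomal RNA genes were 0.132% ± 0.108, 0.237% ± 0.0452 and 0.0961% ± 0.0279 of each library (SD, n = 3). None of the markers in these lists was at 0 in any genotype's mean, and their part in the result was not tested. Neuronal markers did not pass in any of 8 genes by edgeR or DESeq2, with 3 above 0 and a median of -0.059. Choroid plexus markers did not pass in any of 6 genes, with 4 above 0 and a median of 0.093.

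Gene length also moved with the comparison. Ribosomal protein genes are short: their median length was 1739 bases against 4017 over all tested genes, and of the 83 tested members 24 fell in the shortest 10% of genes, 27 in the next 10% and 0 in the longest 10%. In 5xFAD against wild-type, the median log2 fold change of all tested genes went from 0.059 in the shortest 10% to -0.031 in the longest 50%. Members were above the genes of their own length in every band, with medians of 0.15, 0.12, 0.18 and 0.15, the last over only 6 genes. With each library's trend on gene length removed, the members' median was 0.12 and 74 of 83 were above 0.

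**Figure D4:**
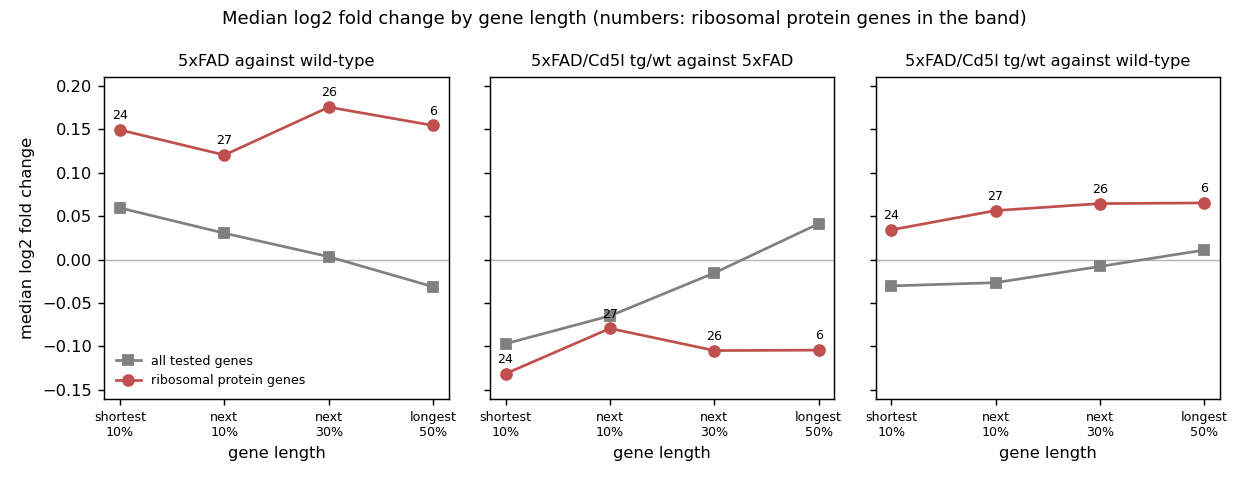
Median log2 fold change of all tested genes (grey squares) and of ribosomal protein genes (red circles, with their number) in 4 bands of gene length, for each comparison. In 5xFAD against wild-type the members lie at 0.12 to 0.18 in every band; in 5xFAD/Cd5l tg/wt against 5xFAD they lie at -0.13, -0.08, -0.10 and -0.10 from the shortest band to the longest, where all genes lie at -0.10, -0.06, -0.02 and 0.04.

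What the Cd5l transgene changed on the 5xFAD background was asked by setting the double transgenic libraries against 5xFAD. Ribosomal protein genes were mostly slightly lower with the transgene, and 0 of 83 passed the test, while 6.23% of all tested genes passed, 5.34% as higher and 0.888% as lower. At an unadjusted p under 0.05 in edgeR, 12 members were lower and 0 higher, against 8.01% and 14.3% of all tested genes; DESeq2 called 0 members, and 6.1% of all genes higher and 2.08% lower. The log2 fold change was below 0 in 74 of 83 members, with a median of -0.11 beside 0.0065 over all tested genes, of which 51% were above 0. In 15 members every transgenic library was below every 5xFAD library and in 0 every one was above, where all tested genes gave 12.1% and 16.6%. With 5xFAD/Cd5l tg/wt replicate 2 left out the counts were 15 and 6, against 16.5% and 21.1%. The same 5xFAD libraries served in the comparison with wild-type, so the directions of these comparisons are not independent.

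Some markers moved here too. Nuclear-retained RNAs rose in 6 of 6 genes, with a median log2 fold change of 1.79, and endothelial markers in 5 of 6, with a median of 0.71. Oligodendrocyte markers were below 0 in 6 of 6 genes, with a median of -0.17, and microglial markers above 0 in 7 of 8, with a median of 0.17. In neither of these cell types did a marker pass by edgeR or DESeq2; at an unadjusted p under 0.05 in edgeR, 2 oligodendrocyte markers were lower and 2 microglial markers higher. Their sums are those given for the comparison with wild-type, and their part in the members' shift was not tested.

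Rps14 had the smallest p, with 245, 226 and 258 CPM in the transgenic libraries, all below the 273 to 290 CPM of 5xFAD (-0.21 ± 0.08, adjusted p = 0.130 in edgeR). Rpl8, a large-subunit protein near the peptidyl transferase centre and with 8.69% of its words shared, stood at 252, 219 and 239 CPM against 265.2, 277.5 and 270.2 (-0.20 ± 0.08, adjusted p = 0.167). In both genes the groups did not overlap.

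Rpl9-ps6 was lower by 0.31 ± 0.13 on the log2 scale (adjusted p = 0.163), and its transgenic libraries were below all 5xFAD libraries. Rpl7l1, a paralog of Rpl7 with a role in ribosome assembly, stood at 39.7, 34.3 and 38.7 CPM against 48.0, 44.2 and 40.3 (-0.23 ± 0.10, adjusted p = 0.180). Its partner Rpl7 differed by 0.013 ± 0.064 (adjusted p = 0.927). Rplp0 was lower without overlap (-0.16 ± 0.07, adjusted p = 0.198), and Rplp1 (-0.06 ± 0.08, adjusted p = 0.666) and Rplp2 (-0.18 ± 0.10, adjusted p = 0.303) overlapped.

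The size of this shift changed with 5xFAD/Cd5l tg/wt replicate 2. Without that library the members' median was -0.040 and 23 of 83 were above 0. Without it, wild-type replicate 3 and 5xFAD/Cd5l tg/wt replicate 3, the median was -0.038, with replicate 1 as the only 5xFAD/Cd5l tg/wt library. Without 5xFAD/Cd5l tg/wt replicate 1, in contrast, the median was -0.14 and 4 members passed the test as lower. In that fit 3.86% of all tested genes passed as lower, so the count of members is near the background. The members called by edgeR were Rplp2 (-0.32, adjusted p = 0.0181), Rps29 (-0.35, adjusted p = 0.0214), Rpl18 (-0.32, adjusted p = 0.0416) and Rps21 (-0.30, adjusted p = 0.04996). With gene-length trends removed the median was -0.059 and 22 of 83 were above 0. In the shortest 10% of genes, members had a median of -0.13 and all tested genes -0.097, and in the next 10% -0.079 and -0.065. Longer members stood further from genes of their own length: the 26 in the next 30% had a median of -0.10 against -0.015, and the 6 in the longest 50% -0.10 against 0.041.

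Against wild-type mice, 5xFAD/Cd5l tg/wt mice differed little in these genes. Of the 83 members 0 passed the test, where 1.58% of all tested genes did, 1.38% as higher and 0.199% as lower. At an unadjusted p under 0.05 in edgeR 5 members were higher and 1 lower, against 6.81% and 5.58% of all, and DESeq2 called 1, Rps29, as lower, where it called 0.801% of all genes lower and 1.94% higher. The median was 0.06 beside 0.00080 over all tested genes, with 64 members above 0, where 50.2% of all tested genes were above 0. Groups did not overlap in 4 members that were higher and 1 that was lower, against 7.93% and 6.53%. With 5xFAD/Cd5l tg/wt replicate 2 left out these counts were 31 and 1, against 11.7% and 9.78% of all tested genes, and with wild-type replicate 3 left out 4 and 6, against 12.1% and 10.5%. Without wild-type replicate 3 the median was 0.017, and without 5xFAD/Cd5l tg/wt replicate 2 it was 0.11.

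Rps29 had the smallest p, with 66.3, 51.7 and 52.9 CPM in the transgenic libraries against 68.6 to 79.8 in wild-type (-0.36 ± 0.10, adjusted p = 0.117 in edgeR). Its family sum differed by -0.20 ± 0.11 (adjusted p = 0.519). Rpl30 stood at 98.01, 73.8 and 80.8 CPM, above all wild-type libraries (0.41 ± 0.12, adjusted p = 0.163), and its family sum differed by 0.14 ± 0.10 (adjusted p = 0.634). Rps2, a small-subunit protein at the entry of the mRNA channel, stood at 236, 232 and 247 CPM against 216, 227 and 180 in wild-type, also without overlap (0.20 ± 0.08, adjusted p = 0.338).

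Rps4x, an X-linked small-subunit gene, stood at 233, 205 and 225 CPM in the transgenic libraries against 192, 209 and 192, with overlap (0.16 ± 0.07, adjusted p = 0.365 in edgeR). Rpl9-ps6 differed by 0.32 ± 0.13 (adjusted p = 0.329), with overlap.

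The widest spread between mice of one genotype was seen in genes with a close copy, pairs that were chosen after their values were seen. Rps27 held 1287, 1106 and 1240 counts in wild-type, 1128, 1560 and 1399 in 5xFAD, and 1108, 423 and 1554 in 5xFAD/Cd5l tg/wt. Rps27rt, with the same coding sequence, held 375, 827 and 196 counts, then 634, 474 and 302, then 455, 988 and 322. In each genotype the library lowest in Rps27 was the highest in Rps27rt: replicate 2 of wild-type, replicate 1 of 5xFAD and replicate 2 of 5xFAD/Cd5l tg/wt. In 5xFAD both were lower in replicate 3 than in replicate 2. Their sum varied 1.44-fold between libraries, against 3.69-fold for Rps27 and 5.04-fold for Rps27rt.

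Rpl17, a large-subunit protein at the exit tunnel, and its processed copy Rpl17-ps10 ran opposite in part. Rpl17 held 925, 1701 and 553 counts in wild-type, 775, 2167 and 901 in 5xFAD, and 651, 629 and 920 in 5xFAD/Cd5l tg/wt, while Rpl17-ps10 held 1436, 751 and 1314, then 1728, 658 and 1525, then 1838, 1361 and 1678. In wild-type and 5xFAD replicate 2 was highest in Rpl17 and lowest in the copy, whereas in 5xFAD/Cd5l tg/wt replicate 2 was lowest in both. The sum varied 1.51-fold, against 3.92-fold for Rpl17 alone. Another processed copy, Rpl17-ps3, shared 81.4% of the 50-base words of Rpl17, against 75.9% for Rpl17-ps10. It held 925 to 1392 counts, and its sum with Rpl17 still varied 2.38-fold. In 5xFAD/Cd5l tg/wt against 5xFAD, Rpl17 gave -0.76 ± 0.34 (adjusted p = 0.213 in edgeR) alone and -0.13 ± 0.08 (adjusted p = 0.381) as a family of 8 genes.

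Rpl21, a large-subunit protein, ranged 3.19-fold, from 370 to 1181 counts, and together with its processed copy Rpl21-ps15 1.67-fold. In 5xFAD replicate 3 and 5xFAD/Cd5l tg/wt replicate 1 Rpl21 was the highest of its genotype, at 1181 and 982 counts, and the copy the lowest, at 684 and 661. In wild-type both were lowest in replicate 3, at 472 and 644. Adding the copy narrowed the range less for Rps27a, which ranged 3.39-fold. It reached 2227 counts in 5xFAD/Cd5l tg/wt replicate 3 against 657 to 1296 in the other libraries, and adding its copy Rps27a-ps3, at 73 to 163 counts, left a 3.05-fold range. Rpl9 and Rpl9-ps6 together ranged 1.64-fold, against 1.58-fold for Rpl9 and 2.04-fold for Rpl9-ps6 alone.

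**Figure D5:**
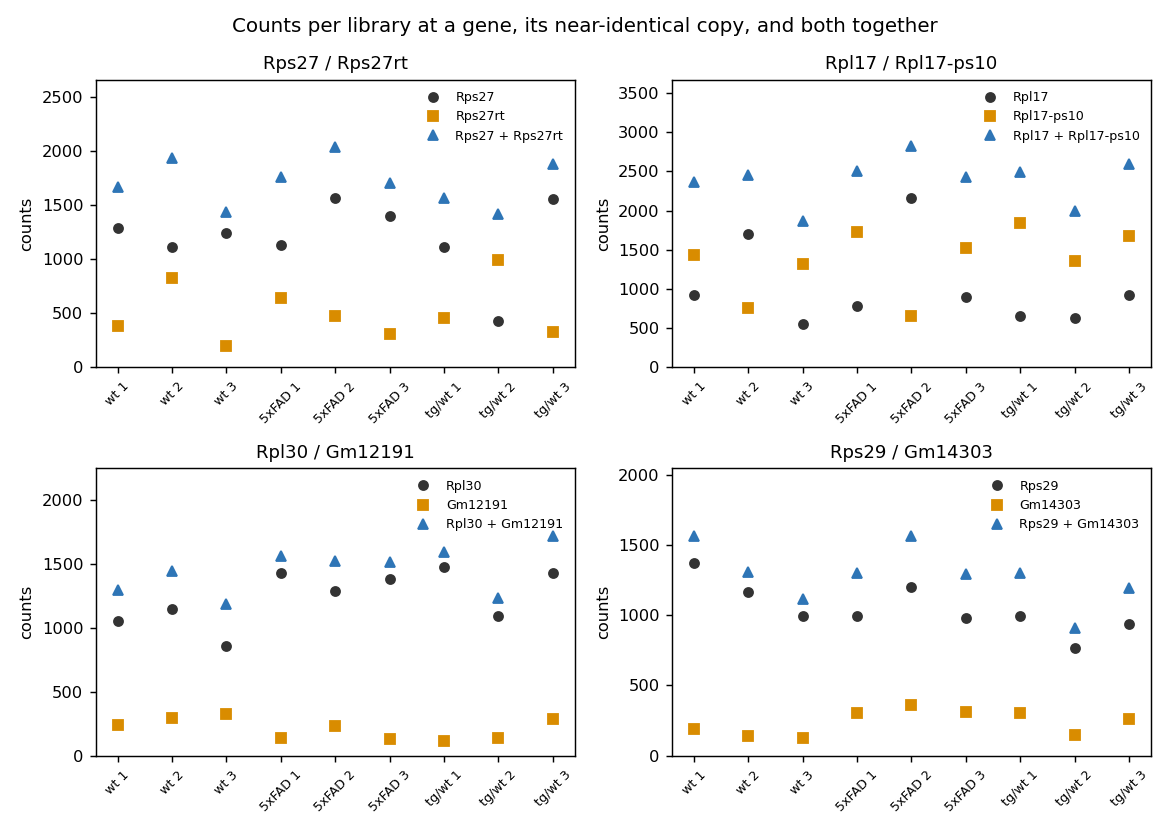
Counts per library (wt, wild-type; tg/wt, 5xFAD/Cd5l tg/wt; replicates 1 to 3) at 4 members, at a near-identical copy of each, and at both together. Rps27rt is highest in each genotype where Rps27 is lowest, and Rpl17-ps10 is lowest where Rpl17 is highest in wild-type and 5xFAD, while the sums stay between 1411 and 2034 and between 1867 and 2825 counts; Gm12191 is lower and Gm14303 higher in 5xFAD than in wild-type libraries.

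Genes outside the rule that also encode ribosomal or ribosome-bound proteins gave similar values. In 5xFAD against wild-type the log2 fold change was 0.13 for Rpsa (adjusted p = 0.498), 0.18 for Fau (adjusted p = 0.328) and 0.15 for the scaffold protein Rack1 (adjusted p = 0.265), by edgeR. In 5xFAD/Cd5l tg/wt against 5xFAD these genes gave -0.15, -0.07 and -0.05.

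Other genes of translation were taken from lists. Of 37 initiation factors 0 passed in any comparison by edgeR, with medians of 0.067 in 5xFAD against wild-type, -0.097 in 5xFAD/Cd5l tg/wt against 5xFAD and -0.036 in 5xFAD/Cd5l tg/wt against wild-type. At an unadjusted p under 0.05 in edgeR, 4 of them were higher and 1 lower in the first comparison, 1 and 8 in the next and 1 and 1 in the last, and DESeq2 called 1, 1 and 0. Of 14 elongation and termination factors 1 passed: Eef2k, the kinase that slows elongation by phosphorylating Eef2, was higher with the Cd5l transgene than in 5xFAD alone and passed (log2 0.47, adjusted p = 0.0154 in edgeR), and DESeq2 called 2. The call on Eef2k ended without 5xFAD replicate 2 or 3 or 5xFAD/Cd5l tg/wt replicate 2 (adjusted p up to 0.0974).

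Mitochondrial ribosomal proteins serve as a comparison of genes with a like role in another compartment. Of 77 tested 0 passed in 5xFAD against wild-type by edgeR or DESeq2 (median 0.047; 2 higher and 2 lower at an unadjusted p under 0.05), and Mrpl12 (-0.32, adjusted p = 0.0452) and Mrpl46 (-0.37, adjusted p = 0.0431) fell in 5xFAD/Cd5l tg/wt against 5xFAD (median -0.12). These calls rest on the choice of libraries: of 23 alternatives Mrpl12 passed in 13 (adjusted p up to 0.175) and Mrpl46 in 14 (up to 0.164), and both calls ended without any 1 of the 5xFAD replicates and without 5xFAD/Cd5l tg/wt replicate 2 or 3. That on Mrpl12 also ended without 5xFAD/Cd5l tg/wt replicate 1 or wild-type replicate 2. In that comparison 20 were lower and 2 higher at an unadjusted p under 0.05 in edgeR. In 5xFAD/Cd5l tg/wt against wild-type their median was -0.083, where that of the cytosolic genes was 0.06.

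Among 46 genes of ribosome biogenesis, Mdn1, the giant ATPase that releases factors from the maturing large subunit, fell in 5xFAD against wild-type (-0.41, adjusted p = 0.0190 in edgeR) and rose with the Cd5l transgene over 5xFAD (0.49, adjusted p = 0.0056). Gnl2, a GTPase of large-subunit export, also rose in the latter (0.39, adjusted p = 0.0361), and Nop10, of the box H/ACA pseudouridylation complex, fell (-0.37, adjusted p = 0.0452). Of 23 alternatives Gnl2 passed in 13 (log2 0.17 to 0.47, adjusted p up to 0.345) and Nop10 in 11 (-0.44 to -0.25, up to 0.206), and both calls ended without any 1 of the 5xFAD replicates, wild-type replicate 1 or 2, or 5xFAD/Cd5l tg/wt replicate 2 or 3. Without 5xFAD/Cd5l tg/wt replicate 2 Gnl2 stood at 0.27. The fall of Mdn1 did not pass without wild-type replicate 2 or 3 or 5xFAD replicate 1 or 2 (adjusted p up to 0.108). Its rise passed in 22 of 23 alternatives. It did not pass in the fit whose only 5xFAD/Cd5l tg/wt library was replicate 1.

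Among 20 genes of mTORC1 signalling and ribosome supply, Myc, a driver of ribosome gene transcription, rose in 5xFAD against wild-type (0.96, adjusted p = 0.0154), and Rps6kb2, an S6 kinase, fell (-0.81, adjusted p = 0.0113) and then rose with the Cd5l transgene (0.99, adjusted p = 0.0025). The calls of Myc and Rps6kb2 in the first comparison ended without wild-type replicate 2 or 5xFAD replicate 1 or 2 (adjusted p up to 0.0842 and 0.0638). Of 17 tested genes of ribosome quality control and stress 0 passed in any comparison by edgeR or DESeq2; at an unadjusted p under 0.05, 1 was higher and 1 lower in 5xFAD/Cd5l tg/wt against 5xFAD and 0 in the other comparisons.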

How the data were processed

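The authors deposited 1 table of unnormalized read counts per gene for 9 libraries, with gene length, coordinates and biotype; the build is GRCm39, per the submitters' processing notes. Aligner, counting tool, strandedness and the treatment of reads that match several genes were not given in the sources used here. Groups come from the genotype in the labels, 3 libraries each. Low genes were removed with filterByExpr of edgeR (at least 10 counts, 15 in total); the others were scaled by TMM (factors 0.987 to 1.02) and fitted over all 9 libraries with edgeR's quasi-likelihood test (edgeR 4.0.16, R 4.3.3). P-values were Benjamini-Hochberg adjusted over the 17575 genes tested, and calls were made under 0.05. SE is the size of the log2 fold change divided by the square root of F. CPM uses the TMM-scaled library size, and CPM per kb divides it by the deposited gene length. The filter took away up to 0.161% of the counts in a library.

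Shared 50-base words and families (at least 50% shared) were computed from GENCODE M21 transcripts on GRCm38, start windows from RefSeq promoters. Sequences of proteins and of the GRCm39 genome were not used here. Members, lists and tests were chosen with earlier results of these data known. Genes were named by rule: members past the threshold, the 5 smallest p-values per comparison, the 5 highest and 5 lowest by CPM per kb, paralogs with their partners, the stalk genes and Rps27a, members below the filter, related genes outside the rule, and called genes of the other lists with up to 4 more by p. A few genes that the rule names are not reported here; the counts and medians include those among the members. The labels do not say that replicate numbers pair the libraries, and the main fit used no pairing. Deviations of same-numbered libraries correlated at -0.0898 to 0.149 and those of differently numbered libraries at -0.151 to 0.140. These values cannot exclude a shared litter or batch. Alternatives were other scalings (RLE, upper-quartile, total count, TMM without the members), other filters, DESeq2 1.42.0, limma-voom (limma 3.58.1), a replicate block, removal of mitochondrial, globin and rRNA genes, gene-length offsets, other thresholds, fewer libraries and, added after seeing the data, counts summed per family and counts of groups without overlap with 1 library left out. The fit was tested on simulated data.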

Additional observations from a re-analysis of the deposited data

How the results depend on the processing

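The members' median log2 fold change kept its sign under all 23 alternatives of each comparison, from 0.11 to 0.20 in 5xFAD against wild-type, from -0.14 to -0.038 in 5xFAD/Cd5l tg/wt against 5xFAD and from 0.017 to 0.11 in 5xFAD/Cd5l tg/wt against wild-type. Counts of members past the threshold moved more. In 5xFAD against wild-type, where 1 passed, 6 passed with DESeq2, 8 with no filter on low counts (7 higher, 1 lower), 3 with only the 6 libraries compared, 6 without wild-type replicate 3 and 5xFAD/Cd5l tg/wt replicates 2 and 3, 6 at an adjusted p under 0.1, and 0 at an adjusted p under 0.01 or with counts summed per family. Leaving out 1 library gave 0 to 2, with 0 without wild-type replicate 2 or any 1 of the 5xFAD replicates. In 5xFAD/Cd5l tg/wt against 5xFAD, where 0 passed, 6 passed with no filter (2 higher, 4 lower) and 0 to 4 with 1 library left out. In 5xFAD/Cd5l tg/wt against wild-type, where 0 passed, 4 passed with no filter (2 higher, 2 lower), 1 with DESeq2 and 0 to 1 with 1 library left out. The causes were not tested. With no filter, 1.26% of all genes tested passed as higher and 3.05% as lower in the first of these comparisons, 4.34% and 2.24% in the next and 1.66% and 1.72% in the last; with only the 6 libraries compared, 1.33% passed as higher in the first. Without 5xFAD/Cd5l tg/wt replicate 1, 1.35% of all genes tested passed as higher in the first, 3.86% as lower in the next and 1.77% as lower in the last. For an adjusted p under 0.1 and for the other fits with 1 library left out, the share over all genes is not given here. Those counts of members are therefore not set against a background. The share of counts in 5xFAD was 1.21% for core genes alone and 1.297% when mitochondrial, globin and rRNA genes were left out of the total. With the replicate number as a block, 1, 0 and 0 members passed in the 3 comparisons, and no call on a member changed; Mrpl12, Mrpl46, Gnl2 and Nop10 did not pass in that fit. Low counts went with larger errors: the SE in 5xFAD against wild-type was 0.27 for Rps10, 0.44 for Rpl10-ps3 and 0.34 for Rps18-ps5, against a median of 0.087 over the members tested.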

Other observations

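Named ribosomal protein pseudogenes, like the coding genes, had their highest mean share of counts in 5xFAD. They took 0.0536% ± 0.00179 of counts (SD, n = 3) in wild-type mice, 0.0632% ± 0.00473 with the 5xFAD transgenes and 0.0610% ± 0.00640 when Cd5l was added. Relative to the counts at the 92 coding members this was 4.80% ± 0.137, 5.14% ± 0.393 and 5.28% ± 0.157. In this ratio 5xFAD replicate 2, at 4.68%, lay within the wild-type range of 4.66% to 4.94%, whereas 5xFAD replicates 1 and 3 lay at 5.36% and 5.37%. The ratio includes Rpl17-ps10, which held 658 counts in 5xFAD replicate 2 against 1728 and 1525 in replicates 1 and 3. Rpl17 held 2167 there against 775 and 901. In wild-type replicates 1 to 3 the copy held 1436, 751 and 1314 counts. How far this 1 copy set the ratio was not tested. All 3 5xFAD/Cd5l tg/wt libraries, at 5.15% to 5.45%, lay above all wild-type libraries. The ratio was chosen after its values were seen, and no test was run on it.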
